A study of Mus musculus with 60 samples.

Results

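The CNTF and LIF signaling genes are 9 genes for the ligands Cntf, Lif, and Clcf1, the receptor chains Cntfr, Lifr, Il6st, and Osmr, and the effectors Stat3 and Socs3. They were chosen by name as known parts of this pathway, after Cntf had been seen to differ between the paxillin siRNA and scrambled (SC) siRNA libraries at 10 days in vitro (DIV10) without BDNF. They are 9 of the 39756 genes in the cortical expression table, and 8 of them passed the filter of a mean of at least 1 TPM (the share of transcripts, corrected for gene length), as did 14250 genes in all. The comparison behind this choice is given below as values without a test. The study asked how paxillin, an adaptor protein of cell adhesions, and its phosphorylation bear on the timing of neuronal development, and RNA of cortical cultures and of hippocampus was sequenced to this end.

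The cortical libraries were all labelled wild type mouse cortical neurons. The labels gave E18 embryos as the source of the cultures, whereas the study names E15 for its mouse neuronal cultures. The cultures had received paxillin siRNA or SC siRNA on DIV2, with or without 20 ng/ml BDNF from the same day. They were collected at DIV3, DIV5, and DIV10. At DIV3 there were 5 paxillin siRNA, 3 SC, 4 paxillin siRNA with BDNF, and 3 SC with BDNF libraries. At DIV5 the numbers were 6, 4, 5, and 4, and at DIV10 they were 4, 3, 2, and 3, in the same order. A further 2 libraries were labelled E15 and carried no siRNA or BDNF label. Each library bore a number, taken here as that of its culture. The labels do not say this, nor that libraries of equal number share a source. Cultures 10 and 11 gave only paxillin siRNA libraries. The 12 hippocampus libraries came from bulk tissue at P10, P15, and P21, 2 of each age and genotype, labelled WT or paxillin KO with paxillin-S119A KI, the latter made with Nestin-CreERT2, which acts in neural cells after tamoxifen. For its long-read sequencing the study names controls with the floxed and S119A paxillin alleles and no Cre. They are called WT here after their label. The study describes its cultures as independent, and the labels do not say whether hippocampus libraries of a group came from separate mice. P-values measure only the spread between these libraries, which in the hippocampus may be technical.

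Cntf, Lif, and Clcf1 belong to the family of interleukin 6 type cytokines, whose receptors share the signaling chain gp130, encoded by Il6st. CNTF and CLCF1 bind the anchored chain CNTFR and then recruit LIFR and gp130, whereas LIF acts through LIFR and gp130 alone, and OSMR pairs with gp130 to receive oncostatin M. The receptors activate JAK kinases and the transcription factor STAT3, and STAT3 induces SOCS3, which feeds back to block the receptor complex. In the developing cortex this pathway is known to promote the formation of astrocytes, and Gfap, the intermediate filament gene of astrocytes, is a known target of STAT3.

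Promoter sequences are shown for Socs3 and Gfap, the textbook STAT3 targets followed below, and for Cntf, the ligand that stood apart. Each runs from 250 bases before to 50 bases after the annotated start in RefSeq (GRCm38.p6), 5′ to 3′ on the strand of the gene, with matches to the letters TTCNNNGAA in capitals. Both motifs read the same on either strand, and every TTCCNGGAA is also a TTCNNNGAA.
Socs3, chr11:117969317-117969616, minus strand: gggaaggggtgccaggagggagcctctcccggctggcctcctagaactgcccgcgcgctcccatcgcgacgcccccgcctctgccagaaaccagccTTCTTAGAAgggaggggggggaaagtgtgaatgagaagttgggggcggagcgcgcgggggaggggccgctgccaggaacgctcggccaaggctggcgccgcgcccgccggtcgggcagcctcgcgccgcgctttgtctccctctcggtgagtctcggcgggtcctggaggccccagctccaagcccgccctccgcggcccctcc
Gfap, chr11:102897151-102897450, minus strand: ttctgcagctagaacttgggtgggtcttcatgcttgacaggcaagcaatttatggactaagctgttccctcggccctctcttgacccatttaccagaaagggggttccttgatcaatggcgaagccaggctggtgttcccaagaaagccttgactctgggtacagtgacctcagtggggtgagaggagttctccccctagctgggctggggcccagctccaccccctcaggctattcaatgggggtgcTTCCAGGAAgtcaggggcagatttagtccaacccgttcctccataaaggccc
Cntf, chr19:12765583-12765882, minus strand: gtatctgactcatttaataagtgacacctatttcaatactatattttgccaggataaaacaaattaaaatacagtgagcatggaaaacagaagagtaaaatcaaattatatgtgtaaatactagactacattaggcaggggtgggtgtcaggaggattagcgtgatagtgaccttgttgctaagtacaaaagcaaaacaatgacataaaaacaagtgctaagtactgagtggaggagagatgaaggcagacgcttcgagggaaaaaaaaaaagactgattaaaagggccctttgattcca
The match in Socs3, TTCTTAGAA, starts 154 bases before the start of the gene, and that in Gfap, TTCCAGGAA, starts 2 bases before it. Of the 9 genes, 8 had 14 promoters in the table, and Socs3 was the 1 gene with a TTCNNNGAA, which 8.3% of 32851 promoters held. None held TTCCNGGAA, which occurred in 1.15% of promoters and in that of Gfap. These matches describe letters and not binding. The genes lie apart in the genome (GRCm38), with Cntf at chr19:12763528-12765632, Clcf1 at chr19:4214238-4223505, Lif at chr11:4257568-4272514, Il6st at chr13:112464070-112506860, Osmr at chr15:6813568-6874968, Lifr at chr15:7090610-7197489, Cntfr at chr4:41657498-41697091, Stat3 at chr11:100886806-100939594, and Socs3 at chr11:117966079-117970336. Cntf overlaps Zfp91, a zinc finger gene on the same strand, so that reads of the 2 genes may have been divided between them and the level of Cntf is uncertain to that extent, and Clcf1 overlaps the annotated gene AC109138.7 in the same way.

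The TPM of every library summed to 1000000, which gives no depth, and no 2 libraries held identical values. Pxn was lower under the paxillin siRNA label at DIV5 (log2 difference -0.67, exact permutation test, 2-sided, adjusted p = 0.0286 over 6 tests), but not at DIV3 (-0.16, adjusted p = 0.482) or DIV10 (0.19, adjusted p = 0.686), nor at any day with BDNF (adjusted p from 0.286 to 0.9). The groups are therefore called libraries labelled paxillin siRNA and libraries labelled SC. Neuronal markers were present throughout, and so were markers of glia. The summed TPM of 13 astrocyte markers was 352 to 1136 at DIV3 and reached 9239 at DIV10, and that of 8 microglial markers rose from between 23.1 and 83.1 at DIV3 to between 199.8 and 1743 at DIV10. These were bulk samples, in which fewer cells of a type and less RNA per cell cannot be told apart. Some libraries stood apart. Culture 3 had the lowest astrocyte sums of the SC libraries at each day, and at DIV10 4 libraries, paxillin siRNA cultures 1 and 2 and both libraries of culture 3, held 455 to 707 TPM of Gfap against 1724 to 5459 TPM in the other 8. Results that rest on them are given with and without them, a choice made after seeing these values.

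Ligands were scarce until DIV10. Cntf, a survival factor for neurons, lay between 2.86 and 12.96 TPM in all 36 libraries before DIV10. At DIV10 without BDNF it was 30.2, 150, 54.4, and 40.5 TPM in cultures 1, 2, 10, and 11 labelled paxillin siRNA, against 4.58, 13.5, and 5.75 TPM in cultures 1, 3, and 6 labelled SC. All 4 values of the first group lay above all 3 of the second, with a log2 difference of 2.81 ± 0.42 (SE) on the log2(TPM + 1) scale, and no test is given because this difference led to the choice of the genes. In culture 1, the only culture with both labels here, the values were 30.2 and 4.58 TPM. The deviations of these libraries from their group means correlated at r = -0.435, so that they were not taken as a pair. They held 707 and 4252 TPM of Gfap. Without the 4 libraries of low Gfap the difference was 2.97 ± 0.36, between paxillin siRNA in cultures 10 and 11 and SC in cultures 1 and 6, where label and culture cannot be told apart. The overlapping gene Zfp91 was at 125 and 134 TPM in cultures 1 and 2 and at 85.2 and 88.2 TPM in cultures 10 and 11, against 83.04 to 92.6 TPM in the libraries labelled SC. It was thus higher in cultures 1 and 2 and within the SC range in cultures 10 and 11. Its part in the value of Cntf was not tested.

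With BDNF at DIV10, Cntf was 39.6 and 32.2 TPM in the 2 libraries labelled paxillin siRNA, from cultures 10 and 11, and 3.92, 3.78, and 19.8 TPM in cultures 1, 2, and 3 labelled SC. These groups did not overlap either, and the log2 difference was 2.22 ± 0.50, which missed the threshold in limma (adjusted p = 0.144, 0.0211% of all genes tested called). It passed without culture 3 of the SC libraries, the highest of that group (2.92, adjusted p = 0.000956). Leaving out all 4 libraries of low Gfap removes the same library from this comparison and gave the same 2.92 (adjusted p = 6.07e-06). It also passed without the filter on low values (adjusted p = 0.02). No culture gave both labels with BDNF at this day, so that siRNA and culture cannot be told apart. From DIV5 to DIV10 in the libraries labelled paxillin siRNA with BDNF, Cntf rose from between 2.86 and 8.85 TPM by 2.62 ± 0.46 on the log2 scale (adjusted p = 8.65e-05), and this call held under all 54 alternative settings of the analysis. Here and below, such counts include leaving out each of the 48 cortical libraries in turn. Most of these lay outside the 2 groups compared and bear on a call only through the shared fit. Libraries of cultures 10 and 11 without BDNF were among those behind the choice of the genes. The calls of Cntf with BDNF are therefore not independent of that choice. Without BDNF the corresponding rise was 3.21 ± 0.35, given without a test since it uses the same libraries as the choice. Under the SC label Cntf differed between these days by 0.27 ± 0.42 without BDNF (no test) and by -0.09 ± 0.42 with BDNF (adjusted p = 0.901). Without culture 3 at DIV10 the latter became -0.79 (adjusted p = 0.13). With all 4 libraries of low Gfap left out, which removes the same library here, it was again -0.79 and passed (adjusted p = 0.0408).

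Lif, which signals through LIFR and gp130, had a mean of 0.906 TPM over the 48 libraries, below the filter, and was listed at 0 in 1 of them. Before DIV10 it was at most 1.27 TPM in all libraries but that of culture 4 labelled paxillin siRNA with BDNF at DIV5, at 3.75 TPM. At DIV10 it was 9.82 and 4.92 TPM in cultures 1 and 2 labelled paxillin siRNA, 3.66 and 3.50 TPM in culture 3 labelled SC without and with BDNF, and 0.697 to 1.41 TPM in the other 8 libraries. The 4 high libraries were those of low Gfap, and they carried both siRNA labels. In the fit without the filter, Lif rose from DIV5 to DIV10 in the libraries labelled paxillin siRNA by 1.60 ± 0.34 (adjusted p = 0.000469), and by 1.05 ± 0.41 in those labelled SC (adjusted p = 0.084). Without the 4 libraries of low Gfap the former was 0.60 ± 0.29 and did not pass (adjusted p = 0.148).

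Clcf1, a cytokine that acts through CNTFR, followed the same division. It was 35.001 and 46.3 TPM in cultures 1 and 2 and 6.54 and 4.88 TPM in cultures 10 and 11 labelled paxillin siRNA at DIV10. With the SC label it was 5.24, 16.6, and 2.36 TPM in cultures 1, 3, and 6. The groups overlapped, and the highest SC library was again that of culture 3. The difference between the labels at DIV10 was 1.21 ± 0.58, given without a test, and 0.54 ± 0.50 without the 4 libraries of low Gfap. From DIV5 to DIV10, Clcf1 rose by 2.26 ± 0.49 in the libraries labelled paxillin siRNA (adjusted p = 0.000301), from between 0.864 and 4.53 TPM at DIV5. This call held under 54 of 55 alternatives and was lost without the 4 libraries of low Gfap (0.94, adjusted p = 0.0692). With the SC label it rose by 1.54 ± 0.58 (adjusted p = 0.0495), a call lost under 39 of 55 alternatives, and without culture 3 at DIV10 the rise was 0.89 (adjusted p = 0.318). It was 19.7 TPM in culture 3 labelled SC with BDNF and 2.17 to 3.79 TPM in the other 4 BDNF libraries of DIV10. With BDNF in the libraries labelled SC it rose by 1.12 ± 0.58 on the log2 scale without passing the threshold (adjusted p = 0.163), but passed when culture was a block (1.27, adjusted p = 0.0117).

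**Figure D1:**
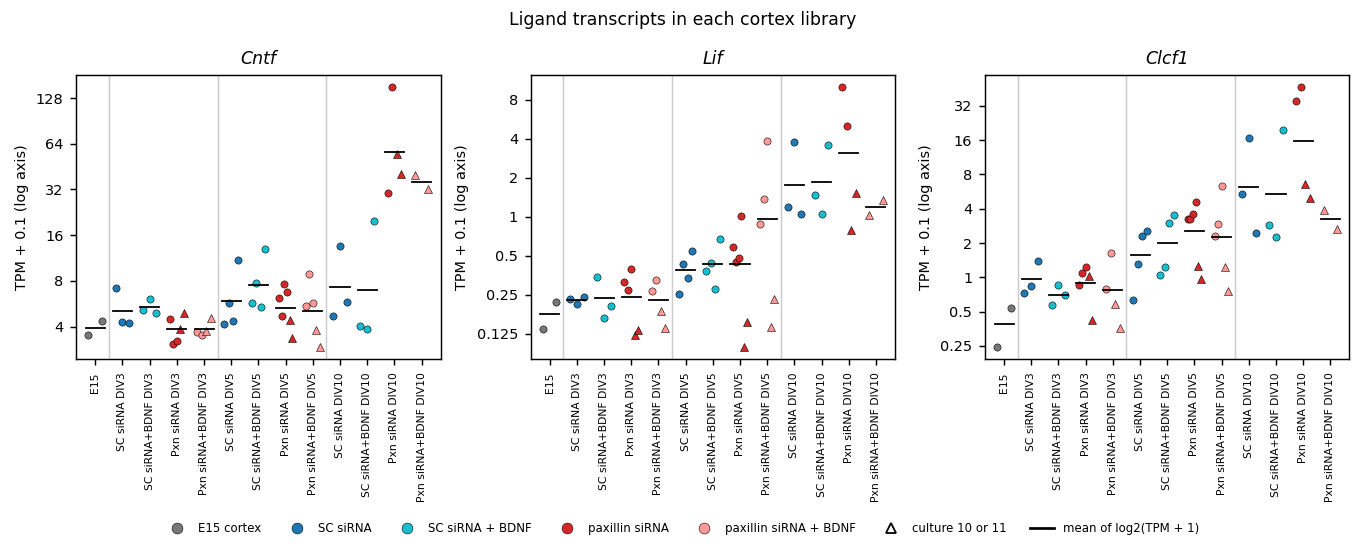
TPM + 0.1 of Cntf, Lif, and Clcf1 on a log axis in each of the 48 cortical libraries, by group, with the group mean of log2(TPM + 1) as a line and cultures 10 and 11 as triangles. Cntf is at 30.2 TPM or more in the 6 paxillin siRNA libraries of DIV10, whereas Lif and Clcf1 are high in 4 libraries of DIV10 that carry both siRNA labels.

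Among the receptor chains, Il6st was the most abundant, with a mean of 56.6 TPM over the 48 libraries, followed by Cntfr with 27.5, Lifr with 8.59, and Osmr with 1.96 TPM. Il6st was lower under the paxillin siRNA label at DIV5. It was 106, 167, 28.1, and 157 TPM in cultures 1 to 4 labelled SC, and 40.5, 51.2, 20.1, 48.97, 50.03, and 43.6 TPM in cultures 1 to 4, 10, and 11 labelled paxillin siRNA. The groups overlapped through culture 3, and within each of the 4 cultures with both labels the SC library was the higher. The log2 difference was -1.20 ± 0.36, a fitted fold of 0.436 (adjusted p = 0.043). This call was lost under 12 of 55 alternatives, among them the rescaling by size factors (adjusted p = 0.0823), the fit of only the 2 groups (adjusted p = 0.14), the fit without cultures 10 and 11 (adjusted p = 0.0864), and the fits without SC culture 1, 2, or 4 (adjusted p = 0.106, 0.253, and 0.212) or paxillin siRNA culture 1, 2, 3, 4, or 10 (adjusted p from 0.0506 to 0.0901).

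The effector Stat3, the transcription factor activated by these receptors, moved with Il6st at DIV5. It was 32.9, 37.0, 18.6, and 42.6 TPM in cultures 1 to 4 labelled SC, and 15.5, 14.8, 14.9, 19.5, 13.1, and 16.6 TPM in cultures 1 to 4, 10, and 11 labelled paxillin siRNA. Only the SC library of culture 3 fell within the range of the other group, and SC was again the higher in 4 of 4 cultures. The difference was -0.96 ± 0.21, a fitted fold of 0.513 (adjusted p = 0.00698), and it was lost in the fit of only the 2 groups (adjusted p = 0.0658) and without SC culture 2 or 4 (adjusted p = 0.0604 and 0.0505). Of all genes tested, 6.18% passed in this comparison, and of the 8 members tested 2 were lower and 0 higher. The share of calls that were lower was 87% and fell to 62.4% after rescaling by size factors. Cultures 1 to 4 gave both labels at this day and paired the libraries. Blocking on culture raised the number of genes called from 880 to 3230, gave -1.26 for Il6st (adjusted p = 0.000725) and -0.90 for Stat3 (adjusted p = 0.000602), and added Clcf1 as higher (0.94, adjusted p = 0.0413).

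Markers of glia moved with Il6st and Stat3. Gfap was 2500, 4292, 508, and 5053 TPM in cultures 1 to 4 labelled SC and 120 to 1214 TPM in the libraries labelled paxillin siRNA, a difference of -2.24 ± 1.16 (adjusted p = 0.245). The summed TPM of the 13 astrocyte markers was 1500 to 8816 and 1240 to 2152 in these groups, and 3 of the 13 were called lower, Sox9 by -1.13, Aldh1l1 by -0.86, and Acsbg1 by -0.77. The 4 markers of oligodendrocyte precursors summed to 377 to 5152 TPM under the SC label, lowest in culture 3, and to 323 to 779 TPM under the paxillin siRNA label, and the 8 of oligodendrocytes to 1628 to 5531 and 1271 to 2213 TPM, with medians of -0.60 and -0.98 beside -0.86 for astrocytes and -0.08 over all genes, and 0 called. Of 9 markers of dividing progenitors 1 was called lower. The part of these cells in the differences of Il6st and Stat3 was not tested.

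No member passed at DIV3, or with BDNF at DIV5 and DIV10, and DIV10 without BDNF was not tested. At DIV3 without BDNF, 0% of all genes tested passed in limma and 21 had an unadjusted p under 0.05, and with BDNF 0% passed, with 229 under 0.05 unadjusted. With BDNF at DIV5, Il6st was 78.6, 94.3, 26.6, and 126 TPM in cultures 1 to 4 labelled SC, and 42.5, 36.1, 42.9, 40.6, and 45.9 TPM in cultures 1, 2, 4, 10, and 11 labelled paxillin siRNA. The difference was -0.76 ± 0.38 (adjusted p = 0.271, 0.596% of genes called), and it passed without SC culture 3 (-1.22, adjusted p = 0.0337). Stat3 differed there by -0.46 ± 0.22 (adjusted p = 0.262). Whether the siRNA difference changed from DIV3 to DIV5 was tested as an interaction, with -1.20 ± 0.55 for Il6st (adjusted p = 0.643) and -0.72 ± 0.32 for Stat3 (adjusted p = 0.634), so that a change between these days was not shown. At DIV10 without BDNF, Il6st differed by 0.33 ± 0.43 and Stat3 by 0.19 ± 0.25, without a test.

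**Figure D2:**
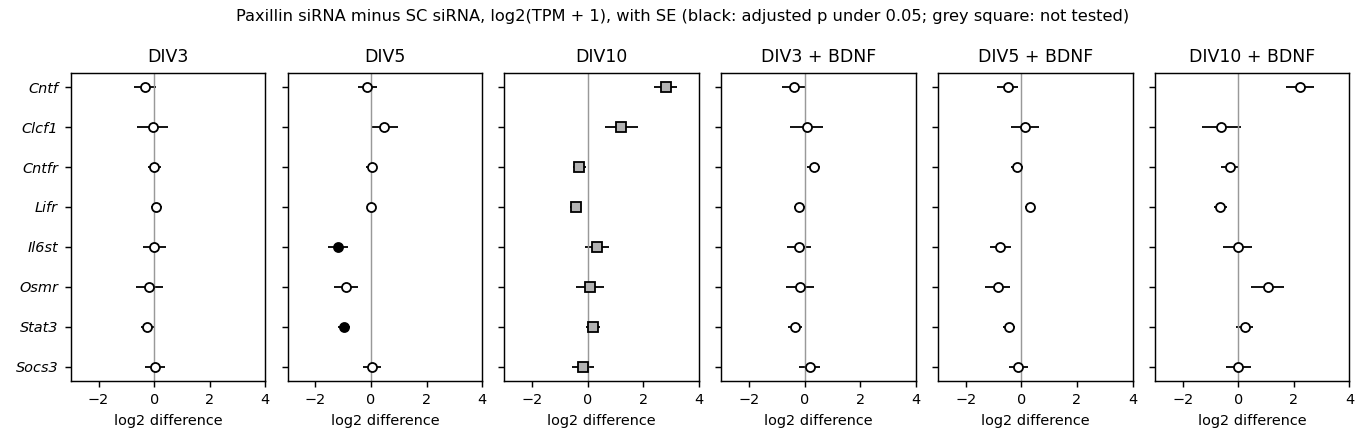
Paxillin siRNA minus SC siRNA in log2(TPM + 1) for the 8 members tested, with SE, at DIV3, DIV5, and DIV10 without and with BDNF. Stat3 (-0.96) and Il6st (-1.20) pass at DIV5 without BDNF (black), and Cntf is displaced at DIV10 by 2.81 without BDNF, where nothing was tested (grey squares), and by 2.22 with BDNF.

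Il6st and Stat3 also rose with the days in culture. Under the SC label, Il6st went from 29.99, 24.95, and 21.8 TPM in cultures 1 to 3 at DIV3 to the DIV5 values above, by 1.86 ± 0.43 (adjusted p = 0.00436). Stat3 went from 15.1, 12.2, and 10.9 TPM to the values above, by 1.25 ± 0.25 (adjusted p = 0.00147). Every DIV5 library lay above every DIV3 library for Stat3, and for Il6st all but culture 3, at 28.1 TPM. Both calls were lost only in the fit of these 2 groups alone (adjusted p = 0.109 and 0.0701). Over the same interval 8 of 13 astrocyte markers rose and 0 fell (median 1.83), 3 of 8 oligodendrocyte markers rose and 0 fell (median 2.10), and Gfap differed by 3.81 ± 1.37 (adjusted p = 0.0705). The part of these cells in the rise was not tested. Of all genes, 9.47% passed, and the share of lower calls, 15.6%, became 36.8% after rescaling, which moved the median of all genes by -0.12. With BDNF in the libraries labelled SC, Il6st rose from DIV3 to DIV5 by 1.27 ± 0.43 (adjusted p = 0.0354), a call lost under 8 of 55 alternatives, and Stat3 by 0.64 ± 0.25 without passing (adjusted p = 0.0716).

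Under the paxillin siRNA label both genes passed in the later interval. Between DIV3 and DIV5 Il6st differed by 0.66 ± 0.34 (adjusted p = 0.272) and Stat3 by 0.53 ± 0.20 (adjusted p = 0.108), with 5.57% of all genes called, a number that blocking on culture raised from 794 to 2109 without adding a member. At DIV10 Il6st was 121, 58.5, 110, and 80.8 TPM and Stat3 was 48.1, 25.5, 26.1, and 32.97 TPM in cultures 1, 2, 10, and 11. Each of these values lay above all 6 of the same label at DIV5. From DIV5 to DIV10 Il6st rose by 1.12 ± 0.36 (adjusted p = 0.011), a call lost without cultures 10 and 11 (adjusted p = 0.0923) and without culture 1 at DIV10 (adjusted p = 0.0535). Stat3 rose by 0.99 ± 0.21 (adjusted p = 0.000254) and held under all 55 alternatives. Under the SC label the same interval gave -0.41 ± 0.43 for Il6st (adjusted p = 0.522) and -0.16 ± 0.25 for Stat3 (adjusted p = 0.696), and the difference between the labels in this interval was not tested.

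Osmr, the chain that pairs with gp130 for oncostatin M, was the scarcest receptor. It was 0.0872 to 1.06 TPM in the 6 libraries labelled paxillin siRNA at DIV5, and 0.672, 1.07, 7.38, and 10.9 TPM in cultures 1, 2, 10, and 11 at DIV10. The higher pair are the libraries of high Gfap. The rise was 1.57 ± 0.43 (adjusted p = 0.00278), but 0.19 without cultures 10 and 11 (adjusted p = 0.778) and 2.78 without the 4 libraries of low Gfap (adjusted p = 3.8e-06). With BDNF it rose from between 0.162 and 1.37 TPM to 7.77 and 7.53 TPM, by 2.36 ± 0.56 (adjusted p = 0.00318), a call lost when either DIV10 library was left out (adjusted p = 0.0699 and 0.0549). With the SC label Osmr differed by 0.59 ± 0.51 from DIV5 to DIV10 (adjusted p = 0.431). On the siRNA label at DIV5 it was 1.33, 1.85, 0.222, and 5.56 TPM in cultures 1 to 4 labelled SC, a difference of -0.89 ± 0.43 (adjusted p = 0.206) that passed only without SC culture 3 (-1.28, adjusted p = 0.0497).

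Lifr, the chain shared by CNTF and LIF, varied least, between 4.43 and 12.9 TPM over the 48 libraries. It rose from 4.43 TPM in both E15 libraries to 7.37, 7.97, and 10.47 TPM in the libraries labelled SC at DIV3, by 0.81 ± 0.23 (adjusted p = 0.0279, 8.11% of all genes called). The call was lost without SC culture 3 (adjusted p = 0.141) or without either E15 library (adjusted p = 0.0911 and 0.275). The E15 libraries held 878 to 1370 TPM of 4 red blood cell markers and 422 to 563 TPM of 8 vascular and mesenchymal markers, against 6.10 to 7.28 and 32.04 to 207 TPM under the SC label at DIV3, and 4 of 4 and 2 of 6 tested were called lower. The part of these cells in the rise of Lifr was not tested. From DIV5 to DIV10 it fell in the libraries labelled paxillin siRNA, from between 8.58 and 12.4 TPM to 4.98, 6.88, 8.94, and 7.74 TPM, by 0.55 on the log2 scale (SE 0.17, adjusted p = 0.00665). The ranges overlapped, and the call was lost without culture 1 at DIV10 (adjusted p = 0.0647) and without the 4 libraries of low Gfap (adjusted p = 0.219). In the same interval it rose in the libraries labelled SC with BDNF, from 6.02, 5.96, 8.72, and 4.68 TPM to 11.8, 9.79, and 9.48 TPM, by 0.65 ± 0.20 (adjusted p = 0.0136). The DIV10 values lay above all 4 of DIV5, and the call was lost in the fit of only the 2 groups (adjusted p = 0.0995), without culture 1 at DIV10 (adjusted p = 0.0848), and without culture 4 at DIV5 (adjusted p = 0.0618). Without BDNF and with the SC label it differed by -0.11 ± 0.20 (adjusted p = 0.739).

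Cntfr, the ligand-binding chain for CNTF and CLCF1, rose in the libraries labelled SC with BDNF from 19.4, 16.2, and 11.6 TPM at DIV3 to 31.6, 37.5, 24.3, and 32.2 TPM at DIV5, by 0.97 ± 0.24 (adjusted p = 0.00544), with no overlap. The call was lost without culture 3 at DIV3 (adjusted p = 0.0601). At DIV10 it was 49.2, 56.7, and 33.3 TPM, a further 0.53 ± 0.24 that missed the threshold (adjusted p = 0.107) and passed when culture was a block (adjusted p = 0.0253) or without culture 3 at DIV10 (0.75, adjusted p = 0.0303). With BDNF and the paxillin siRNA label it differed from DIV3 to DIV5 by 0.49 ± 0.22 (adjusted p = 0.131), and by 0.45 with the block (adjusted p = 0.0458), where 3114 genes passed in place of 1856. Both E15 libraries held 13.3 TPM, and in the libraries labelled SC without BDNF the steps were 0.64 ± 0.29 to DIV3 (adjusted p = 0.166), 0.32 ± 0.24 to DIV5 (adjusted p = 0.476), and 0.44 ± 0.24 to DIV10 (adjusted p = 0.192).

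Socs3, the feedback inhibitor, passed in no comparison. It was 18.01 to 79.9 TPM over the 48 libraries, and its highest values were 70.7 and 79.9 TPM in both libraries of culture 3 at DIV10, against 18.7 to 34.8 TPM in the other 10 libraries of that day. Between the siRNA labels it differed by 0.02 ± 0.37 at DIV3 and by 0.04 ± 0.32 at DIV5 (adjusted p = 1 and 0.96). Without culture 3 at DIV10 it was lower at DIV10 than at DIV5 in the libraries labelled SC with BDNF (-1.14, adjusted p = 0.0195), against -0.49 ± 0.38 with it (adjusted p = 0.376).

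**Figure D3:**
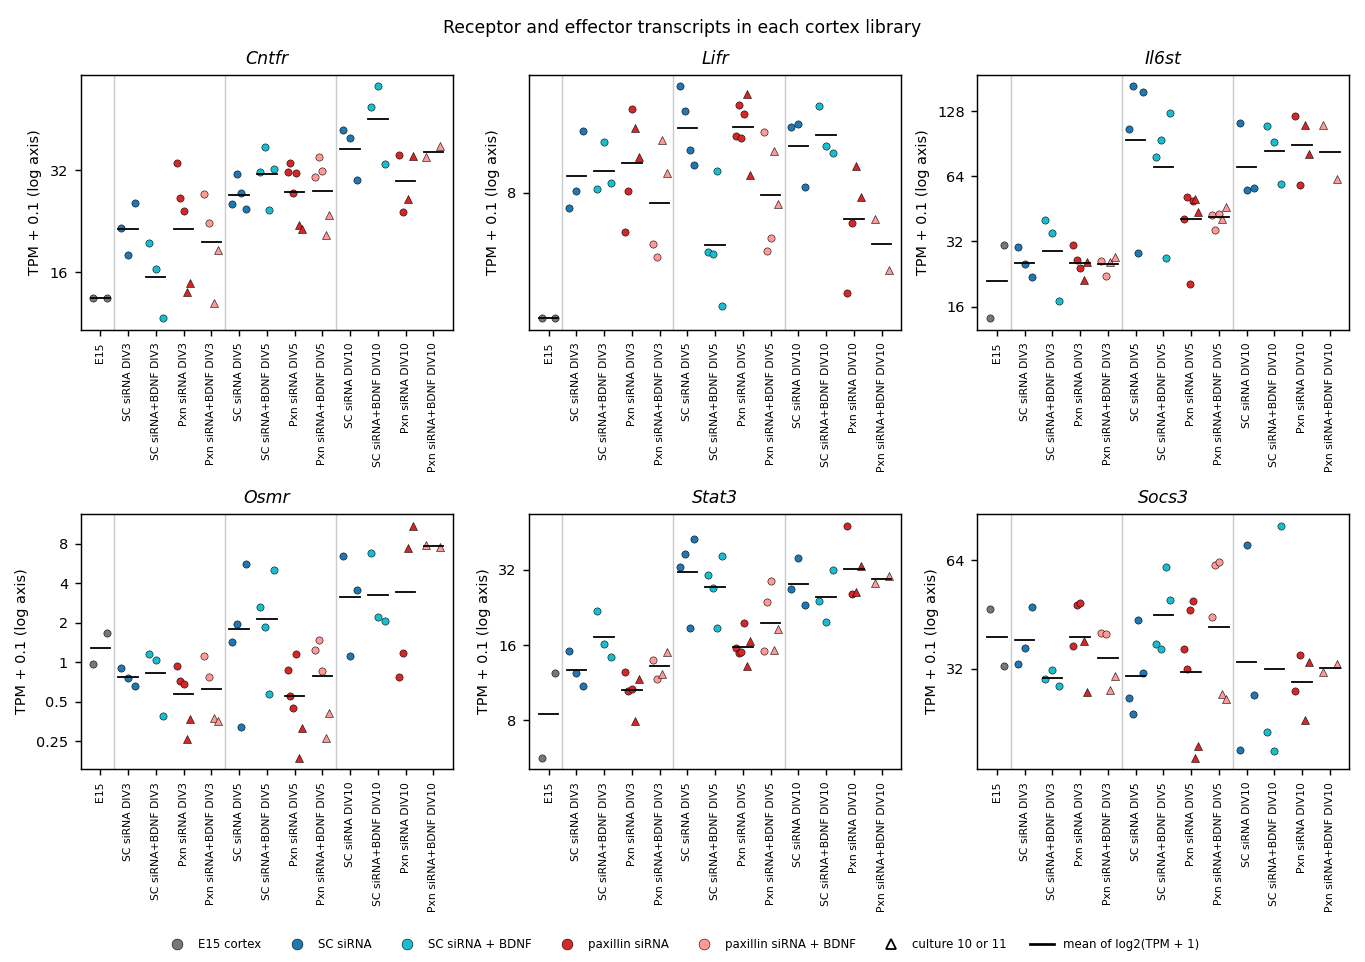
TPM + 0.1 of the 4 receptor chains and the 2 effectors on a log axis in each of the 48 cortical libraries, by group, with the group mean of log2(TPM + 1) as a line and cultures 10 and 11 as triangles. Il6st and Stat3 are higher in 3 of 4 SC libraries of DIV5 than in all 6 paxillin siRNA libraries, and Osmr at DIV10 runs from 0.672 to 10.9 TPM.

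Ordered by their means over the 13 cortical conditions, the members peaked in different groups. Cntf was highest in the paxillin siRNA libraries of DIV10 without BDNF, at 68.8 ± 55.1 TPM (SD, n = 4), then with BDNF at 35.9 ± 5.22 TPM (SD, n = 2), and next in the SC libraries with BDNF of DIV10, at 9.17 ± 9.22 TPM (SD, n = 3). Il6st was highest in the SC libraries of DIV5, at 115 ± 63.7 TPM (SD, n = 4), followed by the paxillin siRNA libraries of DIV10, at 92.8 ± 28.6 TPM (SD, n = 4), and lowest at E15, at 22.3 ± 11.7 TPM (SD, n = 2). Stat3 had 33.2 ± 10.501 TPM and 32.8 ± 10.27 TPM (SD, n = 4 each) in the paxillin siRNA libraries of DIV10 and the SC libraries of DIV5, and 8.96 ± 4.76 TPM at E15 (SD, n = 2). For Il6st and Stat3 the leading groups lay within each other's spread.

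Counted over the day comparisons, 14 changes of members passed. Besides the 9.47%, 5.57%, and 8.11% above, the background was 24.9% of all genes from DIV5 to DIV10 in the libraries labelled SC, where 1 of 7 members tested was called, and 47.2% in those labelled paxillin siRNA, where 5 of 7 were called, 4 higher and 1 lower. Cntf had no test in either. With BDNF and the SC label it was 17.6% from DIV3 to DIV5, with 2 of 8 members called, and 25% from DIV5 to DIV10, with 1 of 8. With BDNF and the paxillin siRNA label it was 13% from DIV3 to DIV5, with 0 of 8, and 13.3% from DIV5 to DIV10, with 2 of 8. Without Cntf, the median of the 7 other members differed by 0.99 from DIV5 to DIV10 in the libraries labelled paxillin siRNA, beside -0.15 over all genes, and by 0.12 beside -0.16 in those labelled SC. Rescaling by size factors moved the median of all genes by 0.16 to 0.18 in the DIV5 to DIV10 comparisons without BDNF and with BDNF and the SC label. It took the share of lower calls there from 76.9% to 46.7% (SC), from 65.6% to 48.1% (paxillin siRNA), and from 73.2% to 45.3% (SC with BDNF), and with BDNF from DIV3 to DIV5 it took that share from 32.4% to 51% under the SC label. The corresponding shares went from 29.6% to 41.8% from DIV3 to DIV5 under the paxillin siRNA label, from 45.9% to 32.8% from DIV5 to DIV10 with BDNF and that label, and from 80% of 85 calls to 25% of 4 calls between the siRNA labels with BDNF at DIV5. These comparisons share libraries, so that their calls are not independent.

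BDNF, the neurotrophin that acts through TrkB, changed no member past the threshold. Of all genes, 1.21% passed at DIV3, 0.0491% at DIV5, and 0% at DIV10 in the libraries labelled SC (352 genes under an unadjusted p of 0.05 at DIV10), and 2.14%, 0.014%, and 0.014% in those labelled paxillin siRNA. Calls under other settings arose for Clcf1 and Lifr. Clcf1 under the paxillin siRNA label at DIV10 was 3.79 and 2.56 TPM with BDNF, a difference of -2.01 ± 0.66 (adjusted p = 0.246) that passed without culture 10 (adjusted p = 0.0386) or culture 11 (adjusted p = 0.0254) of the libraries without BDNF. The 2 libraries with BDNF came from cultures 10 and 11, where the values without BDNF were 6.54 and 4.88 TPM. Lifr in the libraries labelled SC at DIV5 was 6.02, 5.96, 8.72, and 4.68 TPM with BDNF and 12.9, 11.5, 9.59, and 8.98 TPM without, in cultures 1 to 4. It was lower with BDNF in 4 of 4 cultures, and the difference of -0.69 ± 0.18 missed the threshold (adjusted p = 0.157) and passed when culture was a block (adjusted p = 0.0286), where 134 genes passed in place of 7, and without SC culture 4 (adjusted p = 0.0432) or SC culture 3 with BDNF (adjusted p = 0.0214). The block raised the number of genes called from 172 to 571 at DIV3 under the SC label, and from 305 to 781 at DIV3 and from 2 to 56 at DIV5 under the paxillin siRNA label, without a member among them. A difference of the BDNF effect between the siRNA labels passed for no member tested (at DIV10 Clcf1 -1.82 ± 0.91, adjusted p = 0.694, and Cntf -0.59 ± 0.65 without a test), with 0% of all genes called at each day in limma and 162, 116, and 885 genes under an unadjusted p of 0.05 at DIV3, DIV5, and DIV10. For the change of the siRNA difference between DIV3 and DIV5 0% were called too, with 1054 under 0.05.

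The other cytokines, receptors, kinases, and STAT proteins of the pathway, made a list of 18 genes, of which 13 passed the filter. From DIV3 to DIV5 under the SC label 2 of 13 rose, Il11ra1 by 1.00 and Stat5b by 0.90, and none fell, with a median of 0.10 beside 0.11 over all genes. From DIV5 to DIV10 under the paxillin siRNA label 1 rose, Il11ra1, the interleukin 11 receptor, by 1.05, and 3 fell, among them the kinase gene Jak2 by 0.64 and Socs2 by 0.51 on the log2 scale. Under the SC label Il11ra1 rose by 1.20 and Jak2 and Jak1 fell by 0.71 and 0.56. With BDNF from DIV3 to DIV5, Il11ra1, Stat5b, and Pias3, an inhibitor of STAT3, rose under both labels, by 1.29, 0.99, and 0.65 under the SC label and by 0.87, 0.69, and 0.48 under the paxillin siRNA label, and no gene of the list fell. With BDNF from DIV5 to DIV10, Jak2 and Cish fell by 0.81 and 0.79 under the SC label, and under the paxillin siRNA label Il11ra1 and Ptpn11 rose by 1.29 and 0.63 and Cish fell by 0.93, among 3 that fell. From E15 to DIV3 1 of 13 rose and 1 fell, Socs2 by 1.08. Between the siRNA labels at DIV5 2 of 13 were lower, Stat5b by -0.58 and Ptpn11, a phosphatase gene, by -0.48, and 0 were higher, with a median of 0.00 beside -0.08 over all genes. From DIV3 to DIV5 under the paxillin siRNA label Il11ra1 alone rose, by 1.03, and of the BDNF comparisons only that at DIV3 under the same label held a call, Socs2 by -0.64.

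Genes known to respond to STAT3, made a list of 14 that includes Socs3 and Gfap, of which 12 passed the filter. From DIV5 to DIV10 under the paxillin siRNA label 8 of 12 rose and 0 fell, with a median of 1.72 beside -0.15 over all genes, of which 16.3% were called higher and 31% lower. The largest rises were in Lcn2, the secreted lipocalin of reactive astrocytes, by 6.07, the transcription factor genes Cebpd and Cebpb by 3.26 and 2.55, and Junb by 2.40. Without cultures 10 and 11, 5 of 12 rose, and without the 4 libraries of low Gfap, 6 of 12. Under the SC label Lcn2 rose by 4.39 and Myc fell by 1.11, and with BDNF Lcn2 rose by 3.44 and Myc and Mcl1 fell by 1.04 and 0.46. With BDNF and the paxillin siRNA label 3 rose, Lcn2 by 6.32, Cebpd by 2.89, and Vim, another intermediate filament gene, by 2.22. With BDNF from DIV3 to DIV5 Cebpd and Myc rose under the SC label, by 2.05 and 0.72, and BDNF raised Junb at DIV3 under the paxillin siRNA label, by 1.71. Between the siRNA labels at DIV5 none of the 12 passed, with a median of -0.70 beside -0.08 over all genes. Over the same DIV5 to DIV10 interval under the paxillin siRNA label, 7 of 7 microglial markers tested rose (median 3.00), 5 of 13 astrocyte markers rose and 1 fell (median 0.84), and 5 of 8 neuronal markers fell and 0 rose. In the library of culture 1 at DIV10 the summed neuronal markers were 559 TPM and in that of culture 2 889 TPM, against 1247 to 2739 TPM in the other 10. The part of these cells in the rises was not tested.

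The members were then set beside Gfap library by library at DIV5, where Gfap ranged from 120 to 5053 TPM over 19 libraries. After removing the mean of each condition, Osmr followed Gfap most closely, with Pearson's r = 0.84 (adjusted p = 0.00054) and Spearman's rho = 0.91 (adjusted p = 0.00036), by permutation tests within conditions with 100000 resamples, adjusted over 18 relations, 9 at each of DIV5 and DIV10. Cntfr (r = 0.74, adjusted p = 0.0109, rho = 0.66, adjusted p = 0.024), Stat3 (r = 0.70, adjusted p = 0.0319, rho = 0.60, adjusted p = 0.0461), and Cntf (r = 0.62, adjusted p = 0.0491, rho = 0.73, adjusted p = 0.0205) passed by both permutation tests as well. Without the 2 libraries farthest from the median of Gfap, both of culture 10, r was 0.87, 0.61, 0.66, and 0.61 in this order. Libraries of a culture are taken to share their source, and with the culture means removed as well, r was 0.87 for Osmr, -0.04 for Cntfr, 0.35 for Stat3, and 0.77 for Cntf, values without a test. Within cultures the value for Cntfr was thus near 0. Il6st (r = 0.61, adjusted p = 0.0567) and Lif (r = 0.48, adjusted p = 0.0567) missed the threshold by Pearson's r in the permutation test, and Il6st rose to 0.82 without the 2 libraries and was 0.78 within cultures. Lif passed by rho (0.66, adjusted p = 0.0227), but fell to r = 0.27 without the 2 libraries. Clcf1 (r = 0.28), Lifr (r = -0.33), and Socs3 (r = 0.24) did not pass. Without cultures 10 and 11, 2 members passed, Il6st and Osmr. Leaving out each library in turn, Osmr and Cntfr passed in 19 of 19 cases, Stat3 in 12, and Cntf in 7. The permutations treated libraries of a culture as independent, so that neither these counts nor the p-values above allow for shared cultures. The share of all genes that follow Gfap in this way was not computed, so that the relation is not shown to be particular to these genes.

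**Figure D4:**
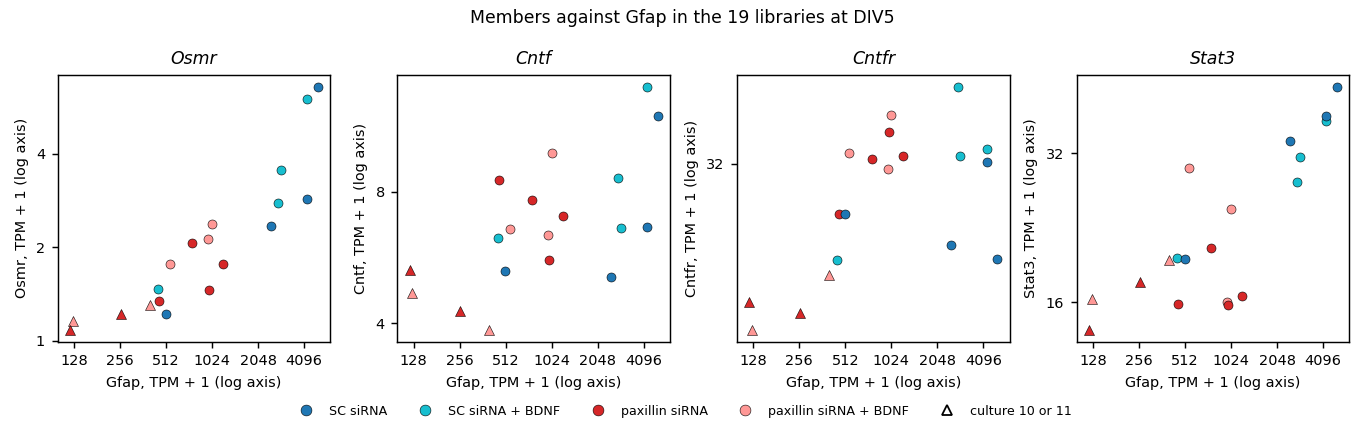
TPM + 1 of members against TPM + 1 of Gfap in the 19 libraries of DIV5, both on log axes, by condition, with cultures 10 and 11 as triangles. Osmr rises with Gfap within conditions (centred r = 0.84), and the SC libraries of culture 3 sit with the paxillin siRNA libraries at low Gfap.

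At DIV10 the 12 libraries fell into 2 sets on Gfap, so that no correlation over all of them is given. The 4 libraries of 455 to 707 TPM of Gfap held 3.50 to 9.82 TPM of Lif, 16.6 to 46.3 TPM of Clcf1, and 0.672 to 1.98 TPM of Osmr. The 8 libraries of 1724 to 5459 TPM of Gfap held 0.697 to 1.41 TPM of Lif, 2.17 to 6.54 TPM of Clcf1, and 2.11 to 10.9 TPM of Osmr. For these 3 genes the sets did not overlap, Lif and Clcf1 being high where Gfap was low and Osmr low where Gfap was low. The share of all genes without overlap between the sets was not computed, so that this is not shown to be particular to these genes. The sets overlapped for Socs3 (27.6 to 79.9 against 18.7 to 33.3 TPM), Stat3 (25.5 to 48.1 against 19.7 to 32.97 TPM), and Cntf (13.5 to 150 against 3.78 to 54.4 TPM). The sets also stood apart on markers of several cell types. The summed astrocyte markers were 1174 to 2143 TPM in the 4 libraries and 4610 to 9239 TPM in the 8, neuronal markers 559 to 1313 and 1649 to 2739 TPM, oligodendrocyte markers 288 to 1623 and 4232 to 9201 TPM, microglial markers 199.8 to 299.6 and 456 to 1743 TPM, and markers of dividing progenitors 482 to 731 and 997 to 1378 TPM. The part of these cells in the values of Lif, Clcf1, and Osmr was not tested. Since the sets were defined from the data, they are not groups of the study and were not tested against each other.

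Among the 8 libraries, a choice made after their values were seen, Osmr (r = 0.94, adjusted p = 0.0176) and Stat3 (r = 0.87, adjusted p = 0.0176) followed Gfap by Pearson's r in an exact permutation test adjusted over 8 members. By Spearman's rho neither passed (0.71, adjusted p = 0.154, and 0.79, adjusted p = 0.112, by the exact permutation test), and r fell to 0.67 and 0.65 without the 2 libraries farthest from the median. Both were lost without culture 11 labelled paxillin siRNA (adjusted p = 0.0873 for both), culture 6 labelled SC (0.0667 for both), or culture 2 labelled SC with BDNF (0.133 and 0.146). The relation of Osmr at this day therefore rests on few libraries. Unlike at DIV5, condition means were not removed and Gfap was permuted over all 8 libraries. The 4 labelled paxillin siRNA held 3316 to 5459 TPM of Gfap and 7.38 to 10.9 TPM of Osmr. The 4 labelled SC held 1724 to 4252 and 2.11 to 6.77 TPM, so that differences between labels and cultures enter these correlations. Cntf had r = 0.62 over these 8 libraries, without a test, and the 4 libraries labelled paxillin siRNA among them held 32.2 to 54.4 TPM of it against 3.78 to 5.75 TPM in the 4 labelled SC.

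**Figure D5:**
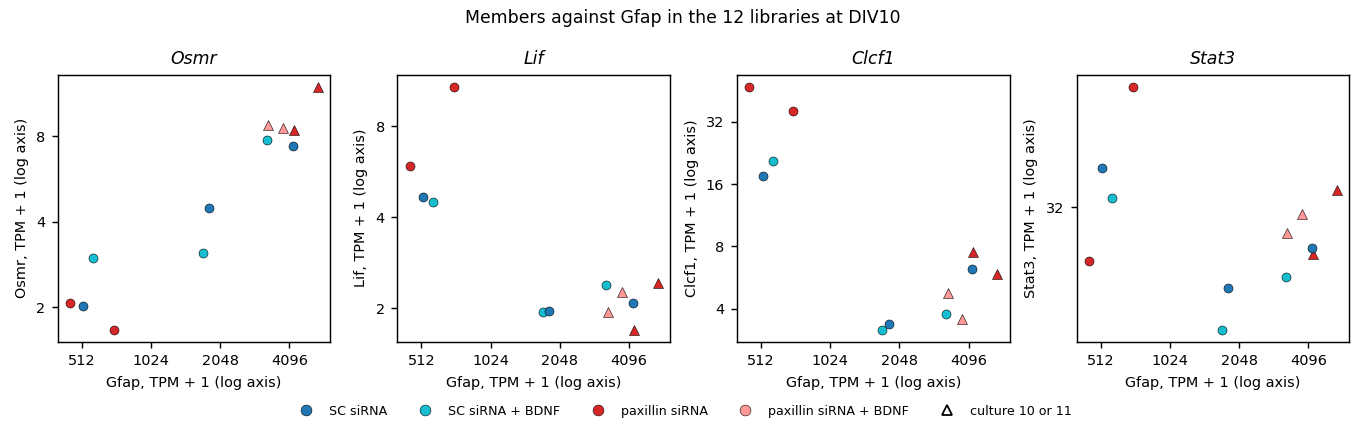
TPM + 1 of members against TPM + 1 of Gfap in the 12 libraries of DIV10, both on log axes, by condition, with cultures 10 and 11 as triangles. The 4 libraries at 455 to 707 TPM of Gfap hold the highest Lif and Clcf1 and the lowest Osmr.

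The genes whose pattern over the 13 cortical conditions was most like that of each member were found by Pearson's r of the condition means, as a description. For Cntf they were Litaf (0.95), Icosl (0.95), and Tprkb (0.94), and for Clcf1 they were Mttp (0.98), Rhbdd1 (0.97), and Sord (0.97). For Il6st they included Man1c1 (0.98) and Itprid2 (0.98), and Itprid2 also led for Stat3 (0.96), before C4b (0.96) and 1700071M16Rik (0.96). For Osmr they were Myo1e (0.99), Aldh3b1 (0.98), and Gm11696 (0.98), for Cntfr Ppt2, Gm2a, and Elovl1 (0.97 each), and for Lifr Kcnq5 (0.95), Dgkd (0.94), and Slc6a17 (0.93). Socs3 had the weakest likenesses, with H1f10 (0.86), Cenpm (0.81), and Trappc1 (0.79). Gfap itself had 0.96 with Stat3, 0.94 with Il6st, 0.88 with Cntfr, 0.71 with Clcf1, 0.69 with Osmr, 0.60 with Cntf, 0.35 with Lifr, and -0.32 with Socs3, over conditions that share cultures.

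In the hippocampus, sequenced by long reads with 3162777 to 5687908 reads per library, the ligands were barely detected. Cntf had 2 to 10 reads per library, Lif 0 to 2, and Clcf1 0 to 3, where a count of 0 allows up to 3 reads, and Socs3 had 0 to 5. These 4 genes were below the count filter. Il6st had 378 to 591 reads and Stat3 113 to 363 reads over the 12 libraries. Il6st differed by 0.26 ± 0.16 from P10 to P15 (log2 fold change of edgeR's quasi-likelihood test, adjusted p = 0.359) and Stat3 by -0.32 ± 0.19 (adjusted p = 0.347), with 6% of 13287 genes called. By P21 the values were 0.24 ± 0.16 (adjusted p = 0.332) and -0.20 ± 0.19 (adjusted p = 0.503), with 15.9% called. Between S119A and WT they were 0.13 ± 0.13 and 0.15 ± 0.15 (adjusted p = 1.00 for both), with 0% called by edgeR, 118 genes under an unadjusted p of 0.05, and 0 by DESeq2. Osmr, at 0 to 25 reads, did not pass in any of the 3 comparisons.

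Cntfr and Lifr divided the hippocampus libraries by number rather than by genotype. Cntfr had 477, 589, 457, and 570 reads in the 4 libraries of P10. At P15 and P21 it had 879, 778, 881, and 763 reads in the libraries numbered 1 and 154, 75, 97, and 214 in those numbered 2. Lifr had 81 to 100 reads at P10, 104 to 134 in the later libraries numbered 1, and 3 to 13 in those numbered 2. The libraries numbered 2 were low in both genotypes. With all 12 libraries neither gene passed from P10 to P15 (-0.11 ± 0.69 for Cntfr and -0.40 ± 0.98 for Lifr, which was -0.40 ± 0.98 at P21 too). Without the 4 libraries numbered 2 of P15 and P21, Cntfr differed by 0.64 at P15 and 0.91 at P21, and Lifr by 0.47 and 0.51. These 4 libraries were the low ones for both genes, so that leaving them out raises these values by itself. It also leaves a single library per genotype at these ages, so that no test is given. The direction turned in all but Cntfr at P21, which was 0.16 ± 0.69 with all 12 libraries. Gfap, at 1096 to 3194 reads, did not pass in any of the 3 comparisons with all 12 libraries.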

How the data were processed

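The authors deposited 1 table of TPM for the cortical libraries, made with STAR 2.7.10 and RSEM 1.3.3 on GRCm38.p6, and a table of read counts per transcript for the hippocampus, made by the authors from Nanopore reads with minimap2 (mm10) and IsoQuant 3.6.3. The TPM give no depth, so that no counting interval can be set. Members and gene lists were chosen with earlier results of these data known.

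Cortical TPM were tested as log2(TPM + 1) with limma 3.58.1 (R 4.3.3, empirical Bayes with trend) in 1 fit of 48 libraries in 13 groups, over the 14250 genes that averaged 1 TPM or more. P-values were adjusted by Benjamini-Hochberg over all genes in each comparison, at a threshold of 0.05. A fold on this scale understates the change of low genes. Errors are SE of the fit. For the comparison by which the genes were chosen, and for Cntf wherever its libraries enter, no p is given. Named were all members, and from each list at most the 4 called genes of largest difference per comparison. Some genes that this rule names are not reported here.

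Hippocampus counts were summed per gene (119252 of 122459 transcripts matched, 98.21% of reads) and tested with edgeR 4.0.16 (quasi-likelihood, age and genotype as terms), with DESeq2 1.42.0 as an alternative. Culture numbers paired the libraries where every pair of the same number correlated above 0.1 in its deviations, as at DIV5 between siRNA labels (r from 0.244 to 0.488 in 4 pairs). Other alternatives were a pseudocount of 0.1, no filter, rescaling by size factors, only the groups compared, and leaving out libraries. Scripts were tested on simulated data.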

Additional observations from a re-analysis of the deposited data

Results flagged for a closer look

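Among 70 pairs of a gene and a group of 4 to 10 libraries, 1 held a library far from the others of its group by Dixon's criterion, which chance meets in about 1 in 20 groups. Il6st in culture 3 labelled paxillin siRNA at DIV5 was 20.134 TPM, against 40.474 to 51.234 TPM in the other 5 libraries, a gap of 0.745 of the whole range. Without this library the siRNA difference of Il6st at DIV5 was -1.001 and no longer passed (limma, adjusted p = 0.0901).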

How the results depend on the processing

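Of 2865 values of members recomputed under other settings, 2742 kept their side of the threshold or, where untested, moved by no more than the SD within groups. Direction was compared only where a call was made, so that values without a call may have changed sign among them. Of the rest, 71 no longer passed, 42 newly passed, 7 untested values moved further, and 3 turned direction. Between the siRNA labels 2 calls were made, against 1 with size factors, 0 with only the groups compared, 5 with culture as a replicate block, 1 without cultures 10 and 11, and 0 to 3 when a library was left out. The block added Il6st at DIV5 with BDNF (-1.004, adjusted p = 0.00689 in limma) and Cntf at DIV10 with BDNF (2.51, adjusted p = 0.0226), where the cultures do not pair the libraries. For BDNF 0 calls were made, against 1 with the block and 0 to 1 when a library was left out. The 14 calls over days became 20 with the block, in which E15 could not be fitted, and 11 to 16 when a library was left out. Where the cultures do not pair the libraries, the block added from DIV5 to DIV10 Cntfr under the SC label (0.61, adjusted p = 0.0259) and Cntfr, Il6st, and Stat3 with BDNF and paxillin siRNA (0.70, 1.05, and 0.72). The relation to Gfap at DIV5 held 4 calls, 2 without cultures 10 and 11, and 2 to 5 when a library was left out, and that among 8 libraries at DIV10 held 2, and 0 to 3. In the hippocampus 0 calls of members were made, and 0 with the block and with DESeq2. Without the libraries numbered 2 of P15 and P21, Cntfr at P15 turned to 0.64 and Lifr to 0.47 at P15 and 0.51 at P21. That fit holds a single library per genotype at these ages, chosen where both genes were high, and no calls are counted from it. There same-numbered libraries correlated at P15 and P21 (r = 0.855 and 0.840) but not at P10 (r = -0.036), so that the numbers were not taken to pair them, and the block raised the genes called from 797 to 1476 at P15 and from 2117 to 3496 at P21 (DESeq2 1373 and 2669). With only the groups compared, 3 genes passed between siRNA labels at DIV5 (880 in the fit of all groups), 3 from DIV3 to DIV5 (1350) and 11 from DIV5 to DIV10 (3551) under the SC label. Without the 4 libraries of low Gfap, 1983 passed between siRNA labels at DIV5 and 502 at DIV10 with BDNF, in place of 3. The cause of these changes was not tested. Cultures 10 and 11 could not be left out at DIV10 with BDNF and paxillin siRNA. The depth of the cortical libraries is unknown.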
